A study of Mus musculus with 24 samples.

Results

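Collagen chain genes were followed across cultured mouse muscle cells of 2 genotypes, 2 cell types and 2 treatments. The members were all protein-coding genes whose symbol is Col, a number, the letter a and a second number, which gave 44 genes of the 56748 in the count table. They were grouped by the kind of collagen they build: 11 fibrillar, 9 FACIT, 6 basement membrane, 6 beaded filament, 4 transmembrane, 3 short chain network and 2 multiplexin chains, and 3 others that include the anchoring fibril chain Col7a1. Poly-A RNA was sequenced in bulk from primary cells, which had been taken from the hindlimbs of mice younger than 5 days. C57 cells came from C57BL/10 mice, and mdx cells came from C57BL/10-Dmdmdx mice, whose mutated dystrophin gene makes them a model of Duchenne muscular dystrophy. Cultured myotubes, the fused cells that precede muscle fibres, received the steroid hormone aldosterone at 1 µM or its DMSO vehicle (0.001% by volume) for 48 h in medium with steroid-stripped horse serum. Fresh medium was then put on these myotubes and taken off 15 h later as conditioned medium. Fibroblasts, the matrix-making cells between muscle fibres, were kept in conditioned medium for 24 h. Each of the 8 groups held 3 libraries. The labels call them biological replicates and do not say whether each came from its own animals, so p-values measure the spread between these cultures.

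Collagens are proteins of the extracellular matrix in which several chains wind into a rope-like helix. Fibrillar chains (types I, II, III, V, XI, XXIV and XXVII) form the fibres that give tissue its tensile strength, and their build-up between muscle fibres is the hallmark of muscle fibrosis. FACIT chains decorate the surface of those fibres, type IV chains form the sheet of the basement membrane around each muscle fibre, and type VI chains form beaded filaments that link that sheet to the fibres outside it. Transmembrane collagens stay in the cell membrane, and some of them act at the contact between nerve and muscle.

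The libraries held 14133165 to 31144746 counts in myotubes and 16964960 to 42698139 in fibroblasts. Levels are given as the deposited FPKM (fragments per unit of gene length and of sequencing depth), which allow genes to be compared per length, as mean ± SD over 3 libraries. Dmd was lower in mdx than in C57 myotubes, at 1.85 ± 0.473 FPKM against 16.6 ± 2.02 FPKM under vehicle. The summed level of 12 myotube markers was 10322 to 15975 FPKM in myotube libraries and 7.20 to 52.1 FPKM in fibroblast libraries. The summed level of 12 fibroblast markers was 302 to 448 FPKM in fibroblasts and 41.1 to 98.7 FPKM in myotubes. The marker Tcf21 was listed at 0 in every group, and the marker list shares Loxl1 with the collagen processing genes described later. Macrophage markers (10 genes) summed to 2.86 to 375 FPKM in myotubes and 4.51 to 17.9 FPKM in fibroblasts, and 8 endothelial markers to 5.47 to 46.4 FPKM and 2.34 to 4.23 FPKM.

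In fibroblasts, type I collagen dominated. Collagen chains took 2.87% to 4.46% of all counts, and the fibrillar class made up 69.9% to 78.2% of the summed collagen FPKM. Col1a1, which encodes the major chain of type I collagen, stood at 1380 ± 331 FPKM in C57 fibroblasts given vehicle medium, 1787 ± 235 FPKM with aldosterone medium, 1236 ± 186 FPKM in mdx with vehicle medium and 1385 ± 342 FPKM in mdx with aldosterone medium. It ranked first in all 4 fibroblast groups, and the ranges of these groups overlapped, except that C57 with aldosterone medium lay above mdx with vehicle medium. The next places were held in each group by Col1a2 (432 to 595 FPKM as group means), Col3a1 (393 to 460 FPKM) and Col6a1, a type VI chain (306 to 387 FPKM). The type V chain Col5a1 lay between 196 and 240 FPKM and the FACIT chain Col12a1 between 52.5 and 104 FPKM.

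Fibroblast libraries also carried chains that are best known from cartilage. Col2a1, the fibrillar chain of cartilage, reached 297, 124 and 193 FPKM in the C57 fibroblasts with vehicle medium and 141, 130 and 105 FPKM with aldosterone medium. It lay at 74.8, 30.4 and 72.8 FPKM and at 74.9, 28.4 and 61.8 FPKM in the mdx fibroblasts. The C57 and mdx libraries did not overlap, and C57 replicate 1 with vehicle medium was the highest of all. The cartilage and bone marker list (10 genes) summed to 182 to 373 FPKM in fibroblasts and 9.77 to 16.6 FPKM in myotubes, and was also highest in C57 replicate 1 with vehicle medium. Of the chains that join type II fibres, Col9a1 ranged from 0.127 to 1.61 FPKM in fibroblasts. It was listed at 0 in 8 of 12 myotube libraries.

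Myotubes held less collagen RNA, in another mixture. Collagen chains took 0.180% to 0.960% of all counts. The basement membrane class made up 32.7% ± 1.72 of the summed collagen FPKM in C57 myotubes under vehicle and 3.33% ± 0.317 in the matching fibroblasts, while the fibrillar class made up 40.6% ± 4.71 and 76.1% ± 1.18. The first place in C57 myotubes belonged to Col4a1, the main chain of the basement membrane sheet, at 63.7 ± 24.3 FPKM under vehicle and 64.5 ± 11.4 FPKM under aldosterone. In mdx myotubes Col1a1 came first, at 185 ± 112 FPKM under vehicle and 202 ± 107 FPKM under aldosterone, against 59.1 ± 29.6 FPKM and 57.1 ± 20.8 FPKM in C57. Col4a1 stood there at 65.4 ± 13.4 FPKM and 72.1 ± 14.5 FPKM. The heat map of all chains shows both mixtures side by side.

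Among the other leading chains, Col4a2 followed Col4a1, at 49.3 ± 18.1 and 51.2 ± 8.40 FPKM in C57 myotubes under vehicle and aldosterone and 56.5 ± 13.5 and 62.9 ± 14.9 FPKM in mdx. In fibroblasts Col4a1 stood at 50.3 ± 7.89, 48.8 ± 5.71, 38.1 ± 6.26 and 34.8 ± 4.04 FPKM, in the order C57 vehicle, C57 aldosterone, mdx vehicle and mdx aldosterone medium, and Col4a2 at 59.5 ± 7.90, 57.3 ± 5.32, 44.7 ± 6.83 and 43.6 ± 4.10 FPKM. The group means of these type IV chains thus lay within 34.8 to 72.1 FPKM in both cell types, in contrast to type I. In myotubes, with treatments and lines in the same order, Col1a2 stood at 9.88 ± 6.11, 10.3 ± 4.18, 53.0 ± 39.0 and 59.5 ± 47.3 FPKM and Col3a1 at 10.0 to 33.0 FPKM (range of 3 libraries), 12.3 ± 4.97, 48.7 ± 42.5 and 53.2 ± 43.4 FPKM. Col5a1, which starts the assembly of type I fibres, stood at 18.9 ± 6.60, 15.5 ± 3.65, 39.4 ± 22.0 and 42.4 ± 25.6 FPKM. Means were higher in mdx for these fibrillar chains, and so were their SDs. Col6a1 stood at 7.84 ± 4.49, 6.26 ± 1.72, 13.8 to 46.5 (range) and 27.4 ± 20.3 FPKM and Col12a1 at 6.40 ± 2.74, 8.83 ± 3.25, 11.4 ± 6.63 and 20.4 ± 14.0 FPKM.

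**Figure D1:**
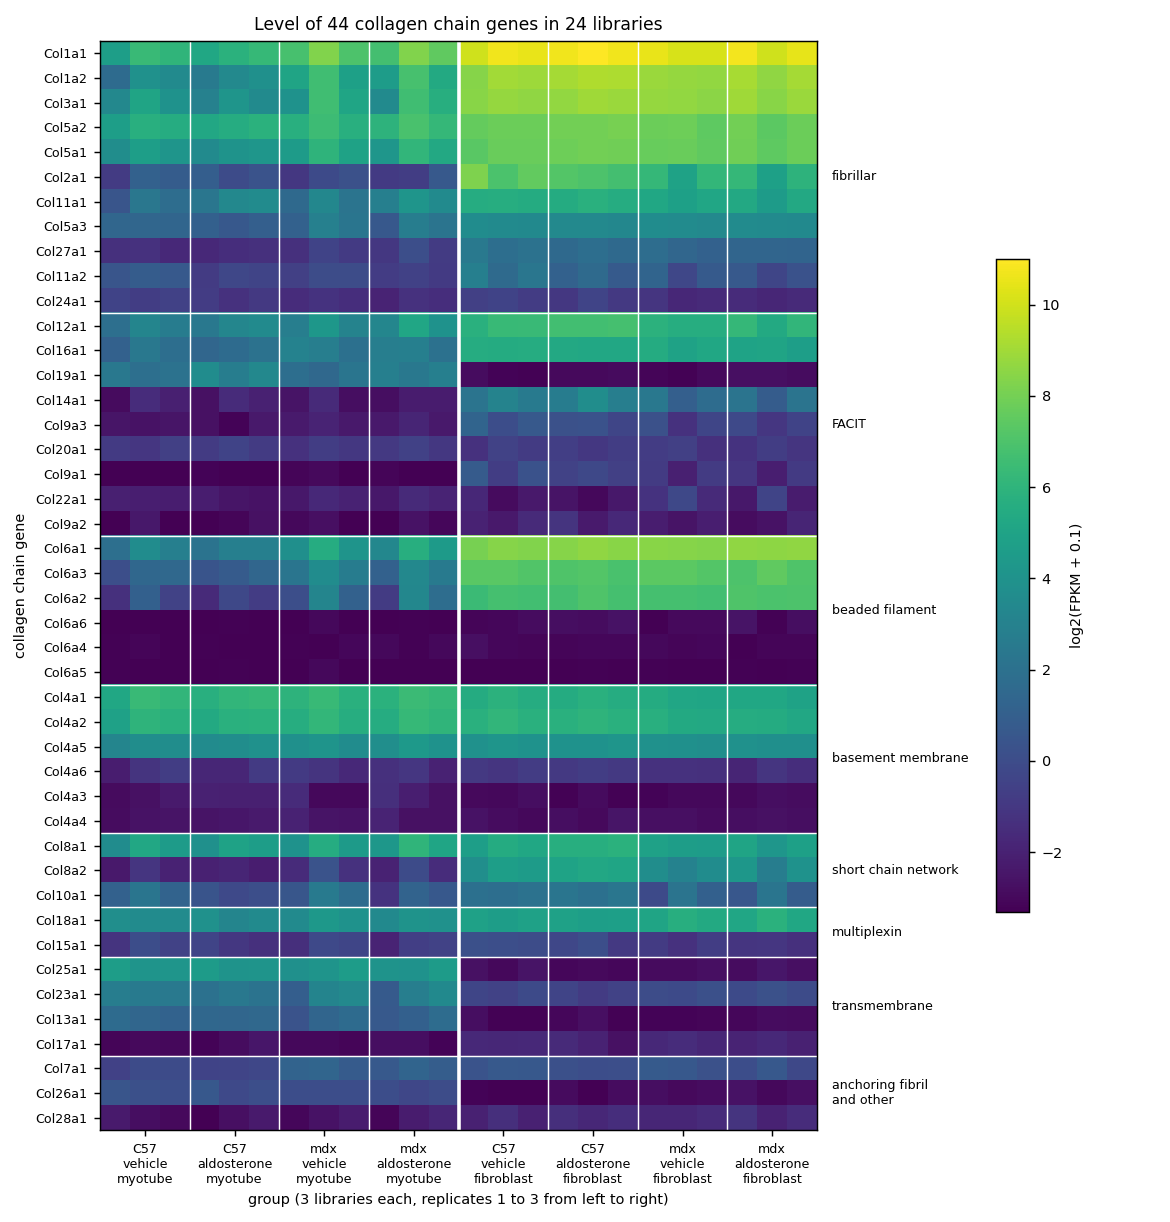
Level of each of the 44 collagen chain genes (rows, by class) in each of the 24 libraries (columns, by group), as log2(FPKM + 0.1) in colour. Most fibrillar chains and the type VI chains Col6a1, Col6a2 and Col6a3 are bright in fibroblasts, and Col24a1, Col6a4, Col6a5 and Col6a6 are dark there. Col4a1 and Col4a2 are bright in both cell types, and Col25a1, Col13a1 and Col19a1 are far brighter in the myotube columns.

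Partner chains of the same collagen did not keep the same proportion in both cell types. The ratio of Col1a1 to Col1a2 was 3.07 ± 0.0875 in C57 fibroblasts with vehicle medium and 6.59 ± 1.51 in C57 myotubes under vehicle, with 3.72 ± 0.659 in mdx myotubes under vehicle. For type VI, the ratio of Col6a1 to Col6a2 was 3.10 ± 0.0821 in C57 fibroblasts and 10.2 ± 3.32 in C57 myotubes. Col6a2 had only 53, 478 and 69 counts in those myotube libraries, where the ratio was 12.3, 6.39 and 11.9. These ratios depend on the gene length used. With the length of the longest protein-coding transcript in place of the deposited gene length, an alternative chosen after seeing the data, the type I ratios became 1.46 and 3.14 and the type VI ratios 1.85 and 6.09. The order of the cell types is set by the counts and does not depend on length. Col4a1 and Col4a2, which start next to each other on opposite strands, held a ratio of 1.29 ± 0.0244 in C57 myotubes and 0.845 ± 0.0197 in C57 fibroblasts.

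Some chains were nearly silent in every library. Col6a4 reached at most 0.0481 FPKM (18 counts) and Col6a5 at most 0.0236 FPKM (3 counts), and neither passed the filter on low counts in any fit. In myotubes 8 of 44 chains did not pass it, namely Col6a4, Col6a5, Col6a6, Col9a1, Col9a2, Col9a3, Col17a1 and Col28a1, and their highest values were 0.0225, 0.0236, 0.0242, 0.0292, 0.0889, 0.180, 0.0830 and 0.188 FPKM in that order. In fibroblasts 4 chains did not pass, namely Col6a4, Col6a5, Col13a1 and Col19a1, with highest values of 0.0481, 0.00558, 0.0510 and 0.0483 FPKM. The tests therefore cover 36 chains where myotubes are compared, 40 where fibroblasts are, and 42 between the cell types.

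Set against fibroblasts of the same line given medium of vehicle-treated myotubes, vehicle myotubes were low in most fibrillar, FACIT and type VI chains. They were high in 3 transmembrane chains and Col19a1, while 1 of 6 type IV chains passed in C57 and 3 of 6 in mdx. In C57, 31 of 42 chains passed edgeR's quasi-likelihood test at an adjusted p below 0.05, against 74.7% of all genes. Of these, 5 were higher in myotubes and 26 lower, against 36.7% and 38% of all genes. In mdx, 32 of 42 passed, against 70.5% of all genes, with 9 higher and 23 lower, against 35.5% and 35.1%. The share of chains that differed was thus near that of all genes, while the direction leaned to lower: the median log2 difference was -1.95 in C57 and -1.54 in mdx, against -0.03 and -0.02 over all genes tested. In bulk libraries, fewer cells of a type and less RNA per cell cannot be told apart. Only the fibroblasts had been kept in conditioned medium, so cell type and culture condition cannot be told apart either.

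By class, 10 of 11 fibrillar chains were lower in myotubes in each line, and Col24a1 was the exception that passed in neither. Col1a1 was lower by 4.60 ± 0.522 (log2 ± SE, adjusted p = 3e-07) in C57 and by 2.75 ± 0.480 (adjusted p = 5.84e-05) in mdx. Col3a1, the fibrillar chain of pliable tissue, had log2 differences of -4.39 ± 0.717 and -3.06 ± 0.674. Of the type VI chains, Col6a1, Col6a2 and Col6a3 were lower in both lines, and Col6a1 had log2 differences of -5.34 ± 0.594 and -3.73 ± 0.549. Among 9 FACIT chains, 6 were lower in each line (Col9a2 in C57 and Col22a1 in mdx, the other 5 in both) and Col19a1 was higher, and Col12a1 had log2 differences of -3.56 ± 0.507 and -2.22 ± 0.479. Among the chains with the largest differences of their class, Col2a1 had values of -7.24 ± 0.703 and -6.34 ± 0.690 and Col1a2 of -5.56 ± 0.692 and -3.04 ± 0.614. Every myotube library lay below every fibroblast library for Col1a1, Col3a1, Col6a1 and Col12a1.

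Further chains stood out within their class. Col6a2 (-6.69 and -4.79) and Col6a3 (-6.25 and -4.39) exceeded Col6a1 in the size of the difference. Col14a1, a FACIT chain of tendon and skin, stood at 0.0336 to 0.255 FPKM in C57 vehicle myotubes and 4.48 to 8.36 FPKM in the matching fibroblasts, a log2 difference of -5.40 ± 0.617, with -5.04 ± 0.673 in mdx. Col9a1 had 0 counts in each C57 vehicle myotube library and 80 to 357 in the fibroblasts, so no fold is given. Col8a2, a short chain of the cornea, stood at 0.206 ± 0.138 FPKM against 20.8 ± 6.67 FPKM in C57 (-6.58 ± 0.618), with -4.44 ± 0.563 in mdx. Col17a1, the hemidesmosome collagen of skin, was the transmembrane chain that was lower in myotubes (-3.21 ± 0.535 and -3.39 ± 0.568), at no more than 0.252 FPKM in vehicle-medium fibroblasts. Col28a1 was also lower (-1.68 ± 0.647 and -1.93 ± 0.690). That call ended in C57 without vehicle myotube replicate 2 (adjusted p = 0.101) or 3 (0.0744) or vehicle fibroblast replicate 2 (0.0972), and in mdx without vehicle myotube replicate 1 (0.126). Col7a1 was lower in C57 myotubes (-0.87 ± 0.227) and higher in mdx ones (0.62 ± 0.220, adjusted p = 0.0168). The mdx call ended without vehicle myotube replicate 1 (0.0574) or 2 (0.0763) or vehicle fibroblast replicate 3 (0.0884), and without a filter on low counts (0.0516).

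Type IV chains behaved otherwise. In C57, 1 of 6 passed, the chain Col4a5, which was lower in myotubes by 0.52 ± 0.154 on the log2 scale (adjusted p = 0.00477). In mdx, 3 of 6 passed and all were higher in myotubes, with Col4a1 at 0.76 ± 0.237 (adjusted p = 0.00761). The other chains of that count, Col4a3 and Col4a4, rested on mdx vehicle myotube replicate 1. Without it Col4a4, with a log2 difference of 1.20 ± 0.460, had an adjusted p of 0.368, and without vehicle fibroblast replicate 3 one of 0.0809. Col4a3 stood at 0.237, 0.0223 and 0.0233 FPKM in the mdx vehicle myotubes, and without that library its log2 difference was 0.02 with an adjusted p of 0.986. Col15a1, a multiplexin of basement membranes, had group means of 0.351 to 0.973 FPKM and did not exceed 1.03 FPKM in any library. It passed in neither line, with log2 differences of -0.64 ± 0.416 and 0.44 ± 0.446. Its partner class member Col18a1, the source of endostatin, was lower in myotubes in both lines (-1.23 ± 0.223 and -1.44 ± 0.224).

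**Figure D2:**
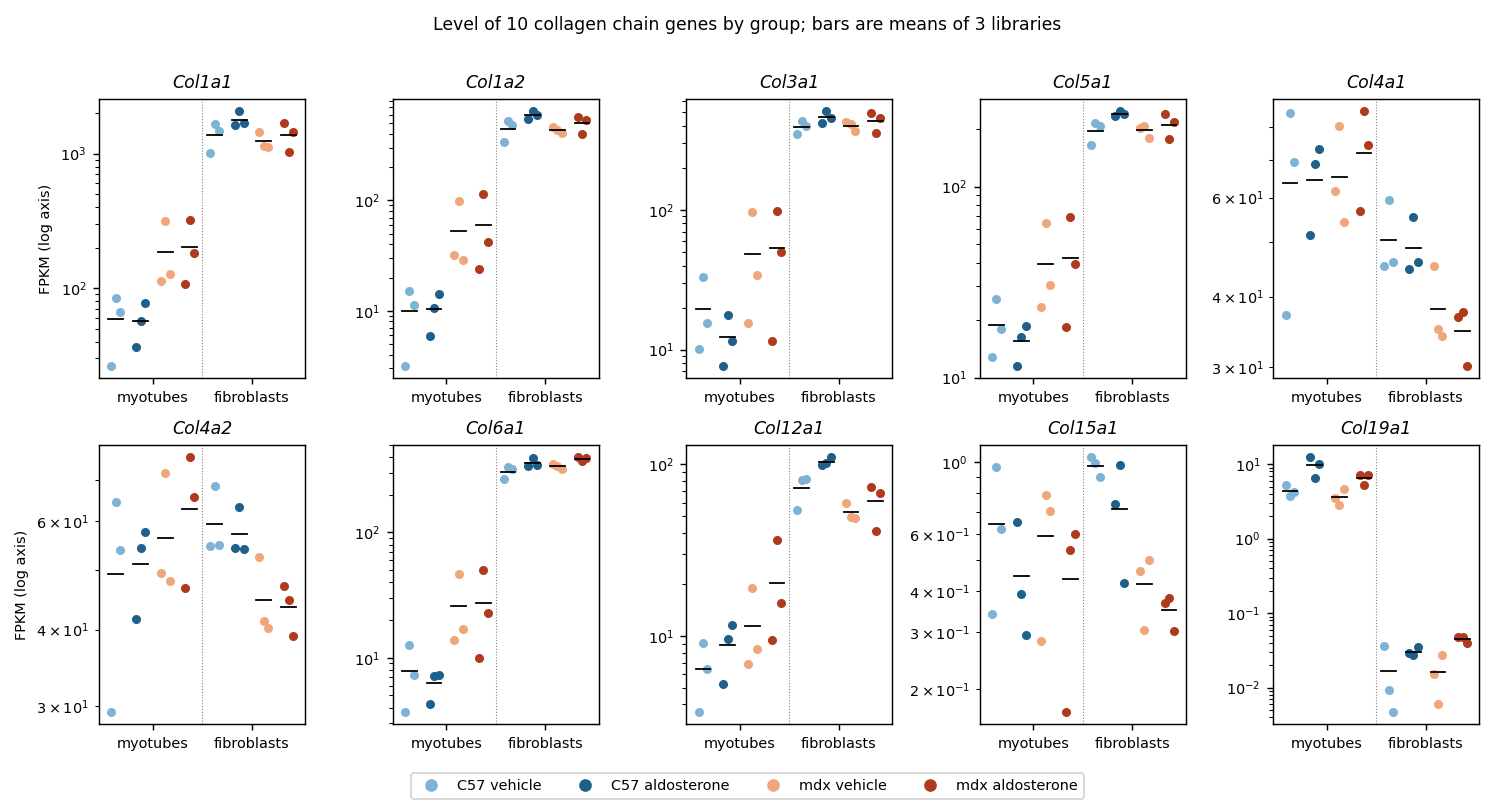
FPKM on a log axis for 10 collagen chain genes, 1 panel each, with 1 point per library, colours for line and treatment, and bars for the mean of 3 libraries. Fibrillar, type VI and Col12a1 points lie higher in fibroblasts, and Col19a1 lies at 2.80 to 12.3 FPKM in myotubes and at most 0.0483 FPKM in fibroblasts. Col4a1 and Col4a2 overlap between the cell types over both lines, but within mdx every Col4a1 point of myotubes lies above those of fibroblasts.

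The chains higher in myotubes in both lines were Col25a1, Col13a1, Col23a1, Col19a1 and Col26a1. Col25a1, a membrane collagen that motor axons need to enter muscle, stood at 25.0, 17.2 and 17.9 FPKM in C57 vehicle myotubes and at 14.7 to 24.1 FPKM in mdx. In the matching fibroblasts it stood at 0.0577, 0.0247 and 0.0701 FPKM and at 0.0363, 0.0339 and 0.0515 FPKM. The groups were far apart, with log2 differences of 8.54 ± 0.321 (adjusted p = 3.52e-14) in C57 and 8.83 ± 0.336 (adjusted p = 5.82e-14) in mdx. Col13a1, a membrane collagen of the neuromuscular junction, ranged from 1.19 to 3.23 FPKM in the 12 myotube libraries and did not exceed 0.0510 FPKM in fibroblasts. Its log2 differences were 6.79 ± 0.480 and 7.45 ± 0.545. Col23a1, another membrane collagen, varied most in mdx, with 1.81, 8.61 and 10.8 FPKM in the vehicle myotubes. Its log2 differences were 3.00 ± 0.568 and 2.89 ± 0.568. Col26a1, a chain of a small separate group, stood at 0.716 to 1.41 FPKM in myotubes and at most 0.0654 FPKM in fibroblasts, where it had 0 to 13 counts a library.

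Because Col13a1, Col19a1 and Col25a1 share this myotube pattern, the 250 bases before the start of each gene are shown here as in RefSeq on build GRCm38.p6, on the strand of the gene. Capitals mark the E-box CANNTG, the core motif of myogenic and other helix-loop-helix factors, searched on both strands (the motif reads the same on each). The windows are Col13a1 chr10:61979109-61979358 on the minus strand, Col19a1 chr1:24587438-24587687 on the minus strand and Col25a1 chr3:130180595-130180844 on the plus strand.
Col13a1: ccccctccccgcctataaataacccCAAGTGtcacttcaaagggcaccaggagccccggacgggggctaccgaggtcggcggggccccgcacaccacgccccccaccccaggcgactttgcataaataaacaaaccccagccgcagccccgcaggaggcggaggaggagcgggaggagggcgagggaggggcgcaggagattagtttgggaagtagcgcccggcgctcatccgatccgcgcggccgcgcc
Col19a1: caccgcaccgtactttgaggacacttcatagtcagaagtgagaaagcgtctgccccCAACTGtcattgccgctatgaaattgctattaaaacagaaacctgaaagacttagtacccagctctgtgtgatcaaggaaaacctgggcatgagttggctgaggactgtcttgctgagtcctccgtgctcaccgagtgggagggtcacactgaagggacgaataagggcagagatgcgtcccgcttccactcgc
Col25a1: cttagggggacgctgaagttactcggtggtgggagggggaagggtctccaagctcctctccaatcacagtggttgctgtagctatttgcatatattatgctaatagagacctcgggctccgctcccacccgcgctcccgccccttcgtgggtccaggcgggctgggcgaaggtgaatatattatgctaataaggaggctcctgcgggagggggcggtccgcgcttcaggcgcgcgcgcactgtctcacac
The Col13a1 window held 1 E-box at base -225 and the Col19a1 window 1 at base -194, counted back from the start, and the Col25a1 window held none. An E-box is common: 66.2% of all 32851 RefSeq windows held at least 1, as did 19 of the 38 windows that matched 35 of the 44 collagen genes. No entry was found for Col1a1, Col2a1, Col4a3, Col5a2, Col9a3, Col12a1, Col14a1, Col22a1 and Col26a1. A match is a description of these letters only.

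Most genes that modify, process, bind and break down collagen were lower in myotubes too. Of 64 such genes, 61 were tested and 58 passed in C57 (74.7% of all genes did), with 51 lower and 7 higher in myotubes (38% and 36.7% of all genes). In mdx, 56 passed (70.5% of all genes), with 48 lower and 8 higher (35.1% and 35.5%). Among the enzymes that hydroxylate or glycosylate the chains, Plod1 had log2 differences of -2.51 ± 0.0915 and -2.45 ± 0.0915, Plod3 of -1.81 ± 0.104 and -1.64 ± 0.104, and P3h1 of -1.38 ± 0.0723 and -1.04 ± 0.0721. P4ha2 and Colgalt1 were also lower in both lines. In the other direction, the membrane-bound protease Mmp15 had differences of 3.31 ± 0.163 and 3.05 ± 0.163, and Ddr1, a tyrosine kinase receptor for collagen, of 1.64 ± 0.106 and 1.52 ± 0.106.

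In myotubes given aldosterone, the chains of types I and III did not pass the test. A handful of other chains, Col19a1 first, passed once libraries were paired by replicate number. Without the replicate number as a block, 0 of 36 chains passed edgeR's quasi-likelihood test in C57 (0.0127% of all genes passed), 0 in mdx (0% of all genes) and 1, Col19a1, in the mean of both lines (0.216% of all genes). At an unadjusted p below 0.05 these counts were 4, 2 and 4, and DESeq2 called 2 (Col19a1 and Col11a2), 0 and 2 (the same pair). Here and below, counts at an unadjusted p and by DESeq2 carry no share of all genes. They cannot be read as an excess of the listed genes. The smallest p-values without the block were those of Col11a2, Col19a1 and Col10a1 in each line. Vehicle and aldosterone libraries of the same number deviated together from their group means, however (correlations of 0.359 to 0.704 in C57 and 0.482 to 0.673 in mdx). The pairing rests on these correlations alone: the labels do not say that a number marks a shared culture, and every call with the block depends on it. With the replicate number as a block, 5 chains passed in C57 (4.98% of all genes), 2 higher and 3 lower (2.52% and 2.46% of all genes). In mdx 2 passed (2.33% of all genes), both higher (1.01% higher and 1.32% lower over all genes). In the mean of both lines 7 passed (8.96% of all genes), 3 higher and 4 lower (4.4% and 4.56%). With the block the chains' shares, 5, 2 and 7 of 36, are to be read against these background shares.

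Col19a1, a FACIT chain found in differentiating muscle and nerve, had the clearest change. In C57 it stood at 5.24, 3.72 and 4.17 FPKM in the vehicle libraries and 12.3, 6.59 and 10.0 FPKM in the aldosterone libraries. In mdx it stood at 3.52, 2.80 and 4.58 FPKM and at 7.06, 5.25 and 7.21 FPKM. Every aldosterone library lay above every vehicle library, in each line and over both. With the block, Col19a1 rose by 1.11 ± 0.0828 on the log2 scale in C57 (adjusted p = 3.47e-08), by 0.86 ± 0.0885 in mdx (adjusted p = 3.37e-06) and by 0.99 ± 0.0606 in the mean (adjusted p = 4.53e-10, higher in 6 of 6 numbered pairs). Without the block the change in the mean was 1.00 ± 0.167 (adjusted p = 0.0476), and leaving out any of 11 of the 12 libraries, all but C57 aldosterone replicate 2, ended that call (adjusted p of 0.0625 to 0.156). It also ended with RLE scaling (0.0524) and without a filter on low counts (0.138), where Col11a2 was called instead (0.00173). In each blocked count made without 1 pair, Col19a1 remained among the chains called. Its neighbour Col9a1, 9205 bases away on chromosome 1 (mm39), had at most 2 counts in any myotube library.

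The type XI chains, which set the diameter of collagen fibres, moved in opposite directions. Col11a1 stood at 1.26, 4.98 and 3.44 FPKM in C57 vehicle myotubes and at 4.79, 10.1 and 11.9 FPKM with aldosterone. In mdx it stood at 2.88, 9.70 and 4.45 FPKM and at 7.05, 17.5 and 11.7 FPKM. The groups overlapped, but each numbered pair was higher with aldosterone. With the block Col11a1 rose by 1.55 ± 0.226 in C57 (adjusted p = 0.0401) and by 1.36 ± 0.157 in the mean (adjusted p = 0.0137), and had a change of 1.18 ± 0.218 in mdx (adjusted p = 0.114). The call in C57 ended without pair 1 (adjusted p = 0.154) or pair 3 (adjusted p = 0.165), and without a filter on low counts (0.0698). In the mean it ended without C57 pair 3 (adjusted p = 0.0559), mdx pair 1 (0.0558) or mdx pair 3 (0.0628).

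Col11a2 stood at 1.27, 1.73 and 1.48 FPKM in C57 vehicle myotubes and at 0.471, 0.736 and 0.673 FPKM with aldosterone. In mdx it stood at 0.566, 0.893 and 0.922 FPKM and at 0.492, 0.595 and 0.447 FPKM. The C57 groups did not overlap and all 6 pairs were lower with aldosterone. Its log2 change with the block was -1.25 ± 0.152 in C57 (adjusted p = 1.16e-05), -0.59 ± 0.177 in mdx (adjusted p = 0.0883, and 0.0459 without a filter on low counts) and -0.92 ± 0.117 in the mean (adjusted p = 7.84e-06).

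Of the other chains that passed with the block, Col5a3 and Col23a1 changed less, while Col10a1 had a larger change in the mean. Col5a3, a minor type V chain, fell by 0.51 on the log2 scale in C57 (SE 0.105, adjusted p = 0.00486) and by 0.35 in the mean (SE 0.0722, adjusted p = 0.00283), and the C57 call ended without pair 2 (adjusted p = 0.0641). Col23a1 fell by 0.41 in C57 (SE 0.0941, adjusted p = 0.0144) and by 0.27 in the mean (SE 0.0680, adjusted p = 0.0181). The Col23a1 calls ended without C57 pair 1 or 3, and in the mean also without mdx pair 1 or 2 (adjusted p of 0.0554 to 0.196 over these). Col10a1, a short chain network collagen, stood at 2.05, 4.68 and 2.24 FPKM in C57 vehicle myotubes and 1.24, 0.808 and 1.00 FPKM with aldosterone, and it was lower in all 6 pairs. Its change had an adjusted p of 0.0557 in C57 and 0.120 in mdx and passed in the mean (-1.48 ± 0.241, adjusted p = 0.0123). The call in the mean ended without mdx pair 2 (0.0651) or 3 (0.0623). In C57 it passed without a filter on low counts (1.76e-15), with DESeq2 (0.0154) and without C57 pair 1 (0.000909) or 2 (0.00371), and in mdx without a filter (1.02e-12) and with DESeq2 (0.0257). The span of Col10a1 overlaps that of the gene Nt5dc1, and the library kit did not record strand. Whether their exons overlap, so that reads could be shared, was not checked. The spans of Col18a1 and Slc19a1 and of Col9a3 and Tcfl5 also overlap.

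Col8a1, a short chain of vessel and eye membranes, passed in mdx. It stood at 15.5, 47.0 and 22.3 FPKM under vehicle and 19.0, 65.6 and 34.0 FPKM with aldosterone, a rise of 0.47 ± 0.0996 (adjusted p = 0.0432). In C57 its adjusted p was 0.995, and the difference between the lines was 0.47 ± 0.141 (adjusted p = 0.827). The mdx call ended without pair 2 (adjusted p = 0.296) or pair 3 (adjusted p = 0.196). Col4a3 passed in the mean (1.03 ± 0.279, adjusted p = 0.0221) at levels of at most 0.275 FPKM. That call ended without C57 pair 1 (adjusted p = 0.0789), mdx pair 2 (0.0900) or mdx pair 3 (0.0591), and with DESeq2 (0.0613).

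**Figure D3:**
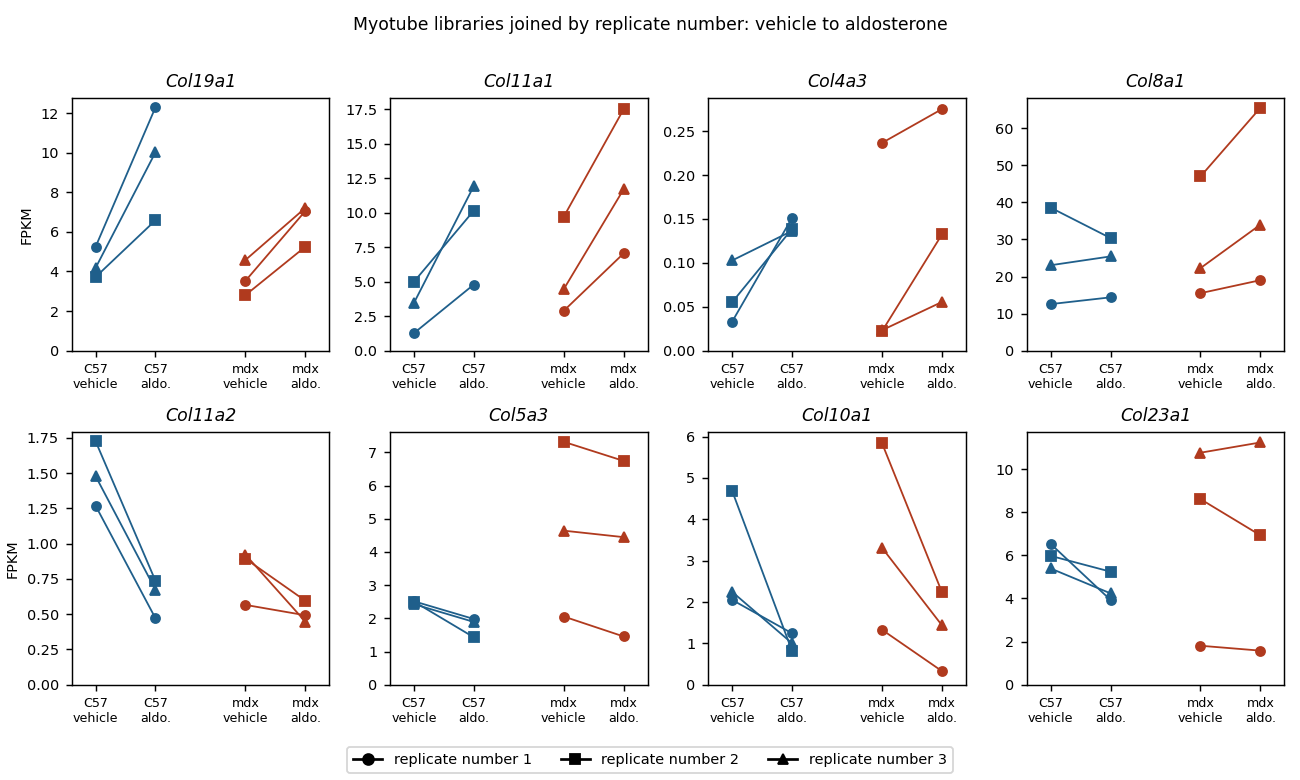
FPKM of 8 collagen chain genes in myotubes, 1 panel each, with lines joining the vehicle and aldosterone libraries of the same replicate number (C57 blue, mdx red). Col19a1 and Col11a1 lines climb and Col11a2 and Col10a1 lines descend in all 6 pairs, while the level of Col8a1 differs more between pairs than between treatments.

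The chains of types I and III did not pass. With the block, Col1a1 had a log2 change of 0.04 ± 0.247 in C57 (adjusted p = 0.961) and of 0.15 ± 0.243 in mdx (adjusted p = 0.881). Col3a1 had one of -0.57 ± 0.226 in C57 (adjusted p = 0.313) and of 0.07 ± 0.222 in mdx (adjusted p = 0.951). Without the block the values were -0.04 ± 0.574 and 0.13 ± 0.573 for Col1a1 and, for Col3a1, -0.66 ± 0.834 and 0.14 ± 0.827. No chain passed edgeR's test of a difference in the aldosterone effect between the lines: 0 of 36 passed without the block (0% of all genes) and 0 with it (0.0444% of all genes). At an unadjusted p below 0.05 these counts were 0 and 4, and DESeq2 called 0 in each form. The smallest p without the block belonged to Col11a2, whose change was 0.63 ± 0.332 larger (less negative) in mdx, followed by Col22a1 (0.76 ± 0.574) and Col27a1 (0.58 ± 0.504). With the block the smallest belonged to Col8a1. Col1a1 and Col3a1 had differences between the lines of 0.18 ± 0.811 and 0.80 ± 1.17 without the block.

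Of the 60 tested genes that handle collagen, 0 passed without the block in C57, in mdx or in the mean, with 3, 3 and 6 at an unadjusted p below 0.05. With the block 8 passed in C57 (6 higher, 2 lower), 4 in mdx (all higher) and 16 in the mean (10 higher, 6 lower), where 4.98%, 2.33% and 8.96% of all genes passed. Tll1, a protease that trims procollagen, stood at 0.857, 2.38 and 2.27 FPKM under vehicle and 1.85, 3.70 and 4.22 FPKM with aldosterone in C57, and rose by 0.78 ± 0.0739 in the mean (adjusted p = 1.04e-07). The collagen-binding integrin chains Itga2 (0.68 ± 0.0877) and Itgb1 (0.26 ± 0.0415) and the prolyl hydroxylase P4ha3 (0.53 ± 0.0872) were also higher in the mean. The crosslinking enzyme Loxl4 rose by 0.39 ± 0.0811 and its relative Loxl1 fell by 0.21 (SE 0.0462). In C57 the calls with the smallest p were Tll1, Itga2, Itgb1, Loxl1, P4ha3 and Ctsk, and in mdx they were Tll1, P4ha3, Itga2 and Loxl4. The macrophage marker sum stood at 9.92, 375 and 215 FPKM in C57 vehicle myotubes and 8.86, 297 and 162 FPKM with aldosterone in the same order. It was thus lower with aldosterone in each C57 pair. In mdx it stood at 2.86 and 2.95 FPKM in replicate 1, at 30.8 and 151 FPKM in replicate 2, and was lower with aldosterone in replicate 3 (9.33 FPKM). Replicate 2 of mdx was therefore the only pair with a clear rise of the sum. With the block, 1 of 10 macrophage markers was called in C57, lower, and 5 in mdx, all higher, and in the mean 6 were called, all higher. Of 12 fibroblast markers 10 were tested, with 1 higher and 3 lower in the mean. Their part in the collagen values was not tested.

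The windows before the start of the hormone-changed genes were searched for the steroid receptor element, the half-site AGAACA or TGTTCT. At least 1 half-site was found in 16.1% of all RefSeq windows and in 2 collagen windows, those of Col9a1 and Col20a1. None of the 7 chains called with the block that have an entry held one. The full element (AGAACA, 3 bases, then TGTTCT) was in 0.00913% of all windows and in 0 collagen windows. This says only that these letters are not in the 250 bases searched.

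In fibroblasts, no collagen chain passed the test in the main fit after conditioned medium of aldosterone-treated myotubes. Some alternative fits called a few chains, which are named below. By edgeR's quasi-likelihood test, 0 of 40 chains passed in C57 (0% of all genes), 0 in mdx (0%), 0 in the mean of both lines (0.012%) and 0 in the difference between the lines (0%). At an unadjusted p below 0.05 these counts were 11, 3, 11 and 2, and DESeq2 called 0, 0, 2 and 0. No share of all genes is given beside these counts, so they cannot be read as an excess of chains. The median log2 change over the chains in the mean was -0.04, against 0.00 over all genes tested. The genotype of the fibroblasts and that of the myotubes that made the medium cannot be told apart.

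The smallest p-values in the mean belonged to type VI chains and Col16a1. Col6a2 stood at 88.2, 108 and 100 FPKM in C57 with vehicle medium and 107, 134 and 110 FPKM with aldosterone medium, and in mdx at 111, 111 and 103 FPKM and 133, 123 and 126 FPKM. All 6 numbered pairs were higher with aldosterone medium, and the log2 change was 0.22 ± 0.0630 (adjusted p = 0.186, and 0.0514 with the block). In C57 fibroblasts, however, the numbers did not pair the libraries (correlations of -0.0176 to 0.121, against 0.106 to 0.299 in mdx). Counts of pairs and values with the block in this paragraph carry that limit. Col6a1 was likewise higher in 6 of 6 pairs, by 0.20 ± 0.0604 (adjusted p = 0.203, and 0.0621 with the block). Col16a1, a FACIT chain, was lower in 5 of 6 pairs, with a change of -0.29 ± 0.0801 (adjusted p = 0.191). Col6a3 went the other way from its partners Col6a1 and Col6a2, at -0.20 ± 0.0854 (adjusted p = 0.302). Some alternatives called these chains in the mean. DESeq2 called Col6a2 (adjusted p = 0.0391) and Col16a1 (0.0319). Without a filter on low counts, edgeR called Col6a2 (0.0134) and Col6a1 (0.0219).

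Type I and III chains did not pass in fibroblasts either. Col1a1 had a log2 change of 0.36 ± 0.222 in C57 (adjusted p = 0.546), of 0.15 ± 0.222 in mdx (adjusted p = 0.944) and of 0.25 ± 0.157 in the mean (adjusted p = 0.476). Its C57 libraries were 1010, 1651 and 1478 FPKM with vehicle medium and 1631, 2057 and 1673 FPKM with aldosterone medium, so the groups overlapped. Col3a1 had values of 0.21 ± 0.118, 0.10 ± 0.118 and 0.16 ± 0.0831 in the same order (adjusted p of 0.497, 0.931 and 0.388). In C57 the smallest p-values were those of Col5a3 (-0.18 ± 0.0664), Col25a1 (near the limit of detection) and Col6a2 (0.23 ± 0.0892), with adjusted p of 0.362 to 0.372. In mdx they were those of Col16a1 (-0.33 ± 0.113), Col6a2 (0.22 ± 0.0892) and Col6a1 (0.19 ± 0.0854), with an adjusted p of 0.915. The difference between the lines was smallest in p for Col25a1, Col4a3 and Col26a1, none above 0.0851 FPKM in any fibroblast library, and Col1a1 and Col3a1 had differences of -0.21 ± 0.314 and -0.11 ± 0.166. Col12a1, picked out after its values were seen, stood at 54.3, 80.7 and 82.8 FPKM in C57 with vehicle medium and 99.9, 102 and 110 FPKM with aldosterone medium. These groups did not overlap, and the change was 0.50 ± 0.223 (adjusted p = 0.418). In mdx Col12a1 stood at 59.7, 49.3 and 48.5 FPKM with vehicle medium and 73.7, 41.2 and 68.0 FPKM with aldosterone medium, and the groups overlapped.

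**Figure D4:**
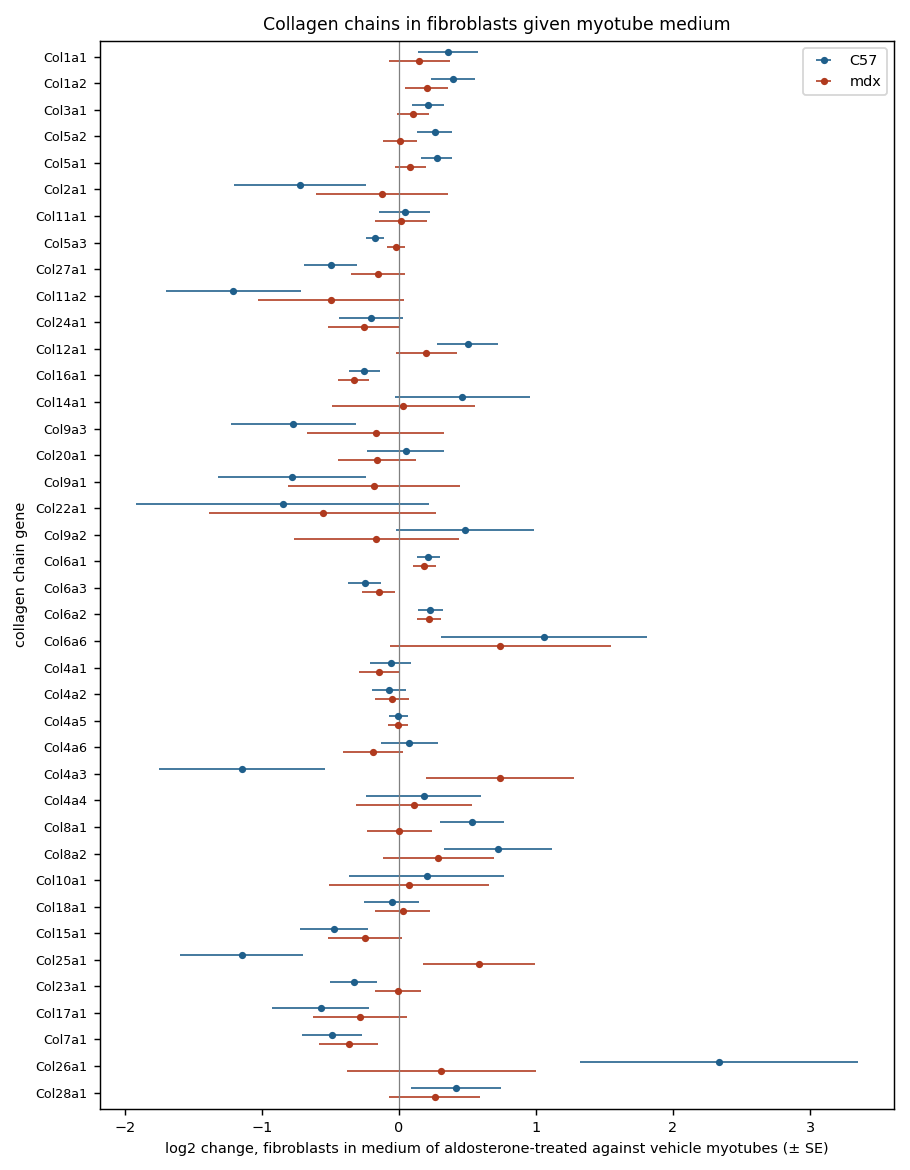
Log2 change (± SE) of 40 collagen chain genes in fibroblasts given medium of aldosterone-treated against vehicle-treated myotubes, in C57 (blue) and mdx (red). Col6a1 and Col6a2 lie to the right of 0 in both lines with short error bars, and none of the 40 chains passed the test.

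Leaving out mdx aldosterone-medium replicate 2 gave 4 calls in the mean: Col6a2 and Col12a1 higher, Col6a3 and Col7a1 lower. Leaving out mdx vehicle-medium replicate 2 gave 1 call, Col16a1. The share of all genes called in these 2 fits is not given. The myotube marker sums of these libraries were 52.1 FPKM, the highest in fibroblasts, and 8.79 FPKM, and their part was not tested. Of the 59 tested genes that handle collagen, 0 passed in C57, in mdx and in the mean (13, 3 and 21 at an unadjusted p below 0.05). The smallest p-values in the mean were those of Loxl3 (-0.23 ± 0.0550), a crosslinking enzyme, and Crtap (0.24 ± 0.0554), a subunit of the prolyl hydroxylation complex, both with an adjusted p of 0.173.

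Between the lines, mdx myotubes held more of 1 chain by edgeR's test without the block, Col7a1. They also held more type I and type VI RNA on average, with wide spread. Col7a1, whose product anchors basement membranes to the matrix below, stood at 0.582, 0.866 and 0.882 FPKM in C57 vehicle myotubes and 2.23, 2.45 and 1.62 FPKM in mdx. With aldosterone it stood at 0.640, 0.680 and 0.727 FPKM and 1.53, 2.33 and 1.77 FPKM. The lines did not overlap. The log2 difference was 1.46 ± 0.214 under vehicle (adjusted p = 0.0127) and 1.48 ± 0.214 under aldosterone (adjusted p = 0.0140). It was the only chain of 36 to pass that test under either treatment, against 0.362% and 0.311% of all genes. The vehicle call ended without C57 replicate 2 (adjusted p = 0.0523), mdx replicate 1 (0.0556) or mdx replicate 2 (0.0650), or with only the groups compared in the fit (0.0928), and the aldosterone call without any of the C57 libraries (0.0729 to 0.0964).

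Col1a1 was 26.5, 84.1 and 66.8 FPKM in C57 and 113, 315 and 128 FPKM in mdx vehicle myotubes. The lines did not overlap, but mdx replicate 2 was far above the other mdx libraries. The log2 difference was 1.66 ± 0.588 (adjusted p = 0.271) under vehicle and 1.84 ± 0.592 (adjusted p = 0.210) under aldosterone. Col3a1 had differences of 1.34 ± 0.843 (adjusted p = 0.492) and 2.13 ± 0.864 (adjusted p = 0.285), and Col6a1 of 1.72 ± 0.687 (adjusted p = 0.307) and 2.15 ± 0.697 (adjusted p = 0.213). With the block, Col1a1, Col1a2, Col6a1, Col6a2 and Col6a3 were also called under vehicle, higher in mdx. Under aldosterone, Col1a1, Col1a2, Col3a1, Col5a1, Col6a1, Col6a2, Col8a1 and Col27a1 were called, again higher in mdx. The numbers did not pair libraries between the lines, and these calls carry no share of all genes. DESeq2 called Col1a2 (adjusted p = 0.0399) and Col27a1 (0.0302) under aldosterone. The median log2 difference over the 36 chains was 0.34 and 0.43, against 0.00 and -0.02 over all genes tested. Col11a2 lay the other way under vehicle, at 1.27, 1.73 and 1.48 FPKM in C57 and 0.566, 0.893 and 0.922 FPKM in mdx. DESeq2 called it (-0.92, adjusted p = 0.0195), as did edgeR without a filter on low counts (0.048) and with the block (0.0176). Under aldosterone the lines overlapped for Col11a2.

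The summed fibroblast markers were also higher in the mdx libraries, though not every member was. Their sum was 41.8, 51.9 and 47.2 FPKM in C57 vehicle myotubes and 59.2, 98.7 and 59.4 FPKM in mdx, with 11 of 12 markers above 0 in each group. The larger part of it was 1 gene, the crosslinking enzyme Loxl1, at 31.3, 35.3 and 32.1 FPKM in C57 and 36.9, 60.2 and 40.0 FPKM in mdx. Pdgfrb, a growth factor receptor, stood at 1.28, 5.09 and 4.81 FPKM and 4.93, 20.6 and 9.41 FPKM. Its relative Pdgfra stood at 0.983, 1.18 and 1.02 FPKM and 1.45, 1.79 and 1.21 FPKM. Thy1 overlapped between the lines, at 0.394, 1.14 and 1.44 FPKM and 0.366, 1.61 and 0.155 FPKM. Dpep1 was higher in mdx replicate 1 (11.0 FPKM) and lower in mdx replicates 2 and 3 (2.74 and 3.67 FPKM) than in the C57 libraries (5.26 to 6.32 FPKM). Of the 10 markers tested, 0 passed edgeR's test between the lines under vehicle and 6 had an unadjusted p below 0.05. Markers of other cells differed too. Myotube markers summed to 13943 to 15325 FPKM in C57 and 10612 to 13965 FPKM in mdx vehicle myotubes, endothelial markers to 15.9 to 35.2 FPKM and 5.87 to 8.30 FPKM, and macrophage markers to 9.92 to 375 FPKM and 2.86 to 30.8 FPKM. The mdx vehicle library with the highest fibroblast and macrophage marker sums, replicate 2, was also that with the highest Col1a1, Col3a1, Col6a1 and Col7a1. The highest myotube and endothelial marker sums of that group were in replicate 3. The part of these markers in the differences was not tested. Of the collagen-handling genes 1 of 60 passed under vehicle (0.362% of all genes), the collagen receptor chain Itga2 (1.87 ± 0.323, adjusted p = 0.0381), and 0 under aldosterone, with 24 and 27 at an unadjusted p below 0.05.

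**Figure D5:**
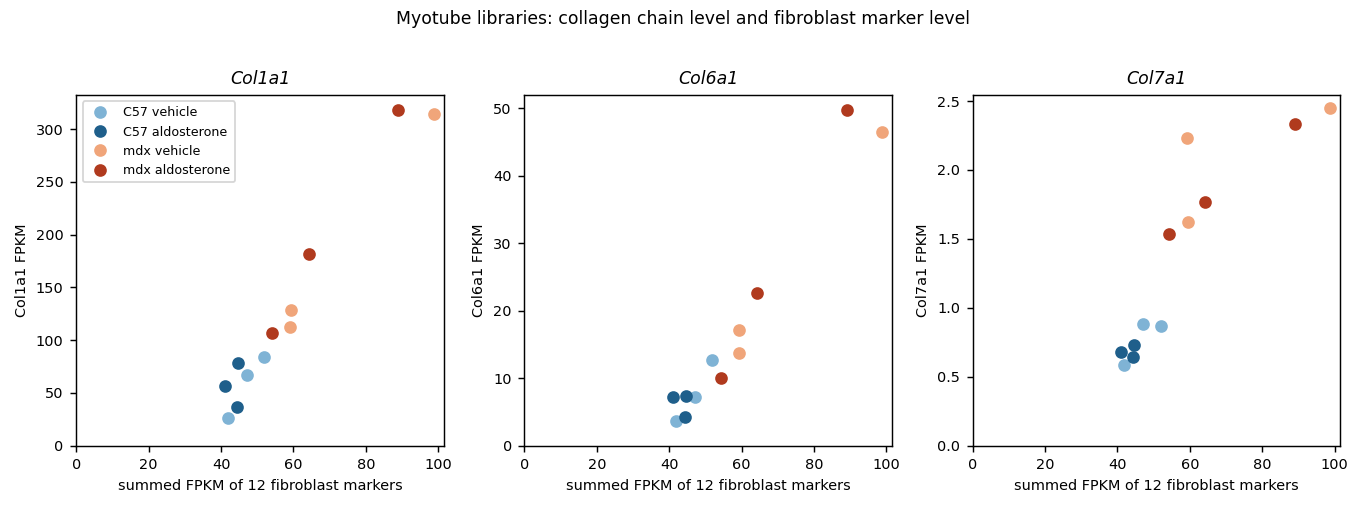
Myotube libraries only: FPKM of Col1a1, Col6a1 and Col7a1 (y axes) against the summed FPKM of 12 fibroblast markers (x axes), with 1 point per library. The mdx replicate 2 libraries lie apart at 98.7 and 89.0 FPKM of markers, with Col1a1 at 315 and 318 FPKM.

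In fibroblasts with vehicle medium the lines differed in 2 low chains by edgeR's test. DESeq2 called more chains with either medium, as counted in the closing section, and those counts carry no share of all genes. Col15a1 was 1.03, 0.990 and 0.898 FPKM in C57 with vehicle medium and 0.463, 0.305 and 0.499 FPKM in mdx, a log2 difference of -1.24 ± 0.256 (adjusted p = 0.0307). Col24a1, a fibrillar chain of developing bone, was 0.556, 0.630 and 0.488 FPKM and 0.358, 0.201 and 0.225 FPKM, a difference of -1.14 ± 0.248 (adjusted p = 0.0385). The groups did not overlap for either chain. These 2 of 40 compare with 1.1% of all genes. With aldosterone medium 1 of 40 passed (1.23% of all genes), again Col24a1 (-1.19 ± 0.254, adjusted p = 0.0336), while Col15a1 had a difference of -1.01 ± 0.263 (adjusted p = 0.0857). Leaving out any vehicle-medium library ended the Col15a1 call (adjusted p of 0.0506 to 0.169). The Col24a1 call survived 1 of these 6 omissions, that of mdx replicate 1, and 1 of the 6 among aldosterone-medium libraries, that of C57 replicate 1. Both Col24a1 calls ended with only the groups compared in the fit (0.0586 and 0.0561).

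Col1a1 had line differences in fibroblasts of -0.16 ± 0.222 (adjusted p = 0.852) with vehicle medium and -0.37 ± 0.222 (adjusted p = 0.515) with aldosterone medium. Col3a1 had differences of 0.02 ± 0.118 (adjusted p = 0.971) and -0.08 ± 0.118 (adjusted p = 0.813). The cartilage chains Col2a1 (-1.79 ± 0.494, adjusted p = 0.171), Col11a2 (-1.75 ± 0.509, adjusted p = 0.187) and Col9a1 (-1.70 ± 0.575, adjusted p = 0.248) were lower in every mdx vehicle-medium library than in any C57 one without passing. Cartilage and bone markers summed there to 260 to 373 FPKM in C57 and 204 to 248 FPKM in mdx, and their part was not tested. Among collagen-handling genes 3 of 59 passed with vehicle medium (1.1% of all genes) and 5 with aldosterone medium (1.23% of all genes), all lower in mdx. The crosslinking enzyme Loxl3 was called with both media (-0.73 ± 0.0781, adjusted p = 0.000136, and -0.58 ± 0.0780, adjusted p = 0.00100). Mrc2, a collagen uptake receptor, and Adamts14, a procollagen protease, were called with vehicle medium. Loxl2 and Plod2, of the crosslinking pathway, Tll1 and the protease Mmp2 were called with aldosterone medium.

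Whether the line difference itself differed between the cell types was tested under vehicle. By edgeR's quasi-likelihood test 0 of 42 chains passed (0.23% of all genes), with 12 at an unadjusted p below 0.05 and 3 called by DESeq2. Col7a1 came closest, with a line difference of 1.46 in myotubes and -0.01 in fibroblasts when each cell type was fitted alone. In the joint fit the difference was -1.49 ± 0.317 (adjusted p = 0.0514), and it passed without mdx vehicle myotube replicate 3. The next smallest p-values were those of Col26a1 and Col27a1 (-1.35). Col1a1 had a difference of -1.84 ± 0.641 and Col3a1 of -1.33 ± 0.886.

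Col4a1 and Col4a2 overlap at their starts, at chr8:11362805-11362826 on mm39 in the deposited coordinates, a stretch of 22 bases. The same 22 bases lie at chr8:11312805-11312826 on GRCm38.p6, where RefSeq gives them, read on the plus strand, as follows.
Col4a1 and Col4a2 shared start: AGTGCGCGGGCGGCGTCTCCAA
Without strand in the library kit, reads from this stretch belong to either gene. Col4a1 had a line difference of -0.41 ± 0.148 in fibroblasts with vehicle medium (adjusted p = 0.284) and Col4a2 of -0.42 ± 0.123 (adjusted p = 0.165). In both treatments every mdx fibroblast library lay below every C57 one for both genes.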

How the data were processed

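The 24 libraries were grouped by the labels, 3 to each of 8 groups. The authors deposited read counts per gene and FPKM values made from them. Per the submitters' processing notes, counts came from featureCounts 1.5.0-p3 on build mm39. The sources used here name no aligner. The library kit did not record strand, per the labels. Deposited FPKM values were used for levels and ratios. The counts were tested with edgeR 4.0.16 (R 4.3.3): genes with low counts were dropped, TMM scaling and the robust quasi-likelihood test were applied in each cell type, or in both for comparisons of cell types, and p-values were adjusted (Benjamini-Hochberg) over all 15763, 16671 or 17864 genes kept. A second fit took the replicate number as a block. It was used beside the aldosterone results in myotubes, where libraries of the same number deviated together in every pair (correlations of 0.359 to 0.704). The labels do not tie a number to a shared culture. The block changed no call in mdx fibroblasts (0.106 to 0.299). DESeq2 1.42.0, RLE scaling, no filter, only the groups compared, and leaving out each library were alternatives. The alternatives to the blocked fit and the transcript lengths were chosen after seeing the data. The fits were tested on simulated data. The text names levels of 10 main chains, Col1a1 and Col3a1 in each hormone and line comparison, every chain called (above 12 calls, the 3 of each class with the largest difference), the 3 smallest p where none was called, and up to 6 called genes that handle collagen. Other names were added after their values were seen. The members and lists were chosen with earlier results of these data known. Promoter windows are from RefSeq.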

Additional observations from a re-analysis of the deposited data

How the results depend on the processing

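Of the called values followed (above 12 calls, the 3 chains of each class with the largest difference), none changed sign under any alternative run. The signs of the other called chains were not compared. Between the cell types, counts of called chains stayed within 1.5 times of 31 and 32 under all alternatives. Without a filter on low counts, chains called numbered 1 for aldosterone in C57 myotubes, 2 for aldosterone medium in the mean, 2 and 3 for mdx against C57 in vehicle myotubes and in aldosterone-medium fibroblasts, and with the block 6 in mdx myotubes, 11 in the mean and 1 in the difference between lines. RLE scaling gave 0 for the myotube mean. Fitting only the groups compared gave 1 for aldosterone in C57 myotubes, 0 for the lines in vehicle myotubes, and 1 and 0 for the lines in fibroblasts with vehicle and aldosterone medium. DESeq2 called 2 in C57 myotubes, 2 in the myotube mean, 2 for aldosterone medium in the mean, 3 and 3 for the lines in myotubes, 6 and 10 for the lines in fibroblasts, 3 for the line difference between cell types, and 5 in mdx myotubes with the block. The replicate block gave 5, 2 and 7 for aldosterone in C57, in mdx and in the mean, as in the main text. It gave 7 and 9 for the lines in myotubes and 1, Col7a1, for the line difference between cell types, where the numbers did not pair the samples (correlations of -0.182 to 0.331). The block changed no other count by over 1.5 times. Leaving out each library gave 0 to 1 for the myotube mean, for the lines in myotubes under either treatment, for the lines in aldosterone-medium fibroblasts and for the line difference between cell types. It gave 0 to 4 for aldosterone medium in the mean and for the lines in vehicle-medium fibroblasts, and with the block 3 to 6 in C57, 1 to 3 in mdx and 4 to 10 in the mean. Except for counts repeated from the main text, no share of all genes is given beside the counts in this section. They cannot be read as an excess of chains. The cause of the moves between settings was not tested. Depth limits the chains that did not pass the filter on low counts, which had at most 18 counts in any library of that cell type.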
